A study of Mus musculus with 9 samples.

Results

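The comparison described here set mouse CD8+ T cells given 1 nM interleukin-15 (IL-15) for 4 h against the same cells given 1 nM interleukin-2 (IL-2) for 4 h. It rests on 2 of the 9 RNA sequencing libraries of the study, chosen by their labelled treatment. All 9 came from spleens of female C57BL/6 mice aged 6 weeks, from which CD8+ T cells had been taken, and the labels do not say how the cells were isolated. Besides the IL-15 and IL-2 libraries at 1 nM and 4 h, there were IL-15 and IL-2 libraries for 24 h of the same dose, for 4 h of 500 nM and for 24 h of 500 nM, and 1 untreated library with no labelled time. Each library held the pooled RNA of 3 samples treated alike, and each condition has 1 library. There is then no spread between replicates to set a difference against. Differences are described by their size and by a 95% counting interval, which covers counting error alone, since reads copied by PCR and not tagged with molecular identifiers can stem from the same molecule.

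IL-2 and IL-15 are growth and survival factors of T cells that share the receptor chains encoded by Il2rb and Il2rg. Each adds a private chain, Il2ra for IL-2 and Il15ra for IL-15, where Il15ra can present IL-15 from the surface of a neighbouring cell. The shared chains activate the kinases Jak1 and Jak3 and the transcription factors Stat5a and Stat5b, which turn on feedback inhibitors such as Cish and survival genes such as Bcl2. In CD8+ T cells IL-2 is best known for effector growth and IL-15 for the upkeep of memory cells.

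Promoter windows of 4 listed STAT5 target genes are shown first, Bcl2 because it had the largest difference of that list and the other 3 because they hold the STAT5 motif, although they stayed under 2-fold. The windows were taken from RefSeq for the GRCm38.p6 build, whereas the counts were made on mm8. STAT5 dimers bind motifs of the form TTCNNNGAA, which reads the same on both strands, and capitals mark each match. The Cish window lies at chr9:107296409-107296688 on the plus strand, the Socs3 window at chr11:117969367-117969616, the Lta window at chr17:35205352-35205601 and the Bcl2 window at chr1:106714291-106714540, all 3 on the minus strand.
Cish: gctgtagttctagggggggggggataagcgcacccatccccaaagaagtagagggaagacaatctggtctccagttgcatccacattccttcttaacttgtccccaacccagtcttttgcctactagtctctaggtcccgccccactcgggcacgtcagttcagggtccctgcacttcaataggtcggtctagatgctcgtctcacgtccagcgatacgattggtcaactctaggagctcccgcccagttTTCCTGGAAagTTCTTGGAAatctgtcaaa
Socs3: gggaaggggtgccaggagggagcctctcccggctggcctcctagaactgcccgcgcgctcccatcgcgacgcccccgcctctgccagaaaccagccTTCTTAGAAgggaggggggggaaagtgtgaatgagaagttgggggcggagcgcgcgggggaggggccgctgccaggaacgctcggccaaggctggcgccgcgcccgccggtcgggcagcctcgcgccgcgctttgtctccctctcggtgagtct
Lta: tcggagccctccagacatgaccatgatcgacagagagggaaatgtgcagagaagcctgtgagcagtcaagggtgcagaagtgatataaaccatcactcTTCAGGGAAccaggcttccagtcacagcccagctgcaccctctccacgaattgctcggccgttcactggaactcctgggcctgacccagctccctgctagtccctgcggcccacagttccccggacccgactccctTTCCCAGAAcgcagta
Bcl2: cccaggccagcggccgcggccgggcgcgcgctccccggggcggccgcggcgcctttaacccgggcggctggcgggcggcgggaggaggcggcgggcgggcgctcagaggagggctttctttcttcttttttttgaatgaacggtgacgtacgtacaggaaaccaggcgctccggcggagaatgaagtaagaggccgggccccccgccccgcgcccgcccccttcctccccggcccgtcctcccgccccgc
The search covered 250 bases before and 50 after the annotated start of every gene. Cish held 2 matches, both after its start, so its window is printed with 30 bases past the start and the others end at the start. Lta held 2 matches, Socs3 1 and Bcl2 0, with none after the start. Of 16 listed STAT5 target genes with a window, 4 held a match, the fourth being Tnfrsf9. A match was found in 9.55% of all 27025 symbols with a window and in 8.51% of the 8073 with at least 20 reads in the pair. It was found in 16% of 200 genes at least 4-fold above untreated at 500 nM and 4 h with both cytokines. A match is a run of letters and not a measured binding site.

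The IL-15 library held 27158143 reads and was the shallowest of the 9, and the IL-2 library held 34848293 reads, with 1 transcript taken per gene symbol. Levels are given in CPM, the read count set to a common library size, after TMM scaling, which centres most genes on the same level in all libraries. A count of 0 allows a level of up to 0.113 CPM in the IL-15 library and 0.0808 CPM in the IL-2 library. A gene was counted as different when it was at least 2-fold higher in 1 library than in the other, with at least 20 reads in the higher one. Differences are written as log2 of IL-15 minus IL-2, with 1 read added to each side.

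Most genes that separated IL-15 from IL-2 at 1 nM and 4 h were faintly expressed, and well-counted genes differed little. Of 11672 genes with at least 20 reads, 673 were at least 2-fold higher with IL-15 (5.77%) and 942 were lower (8.07%), together 1615 or 13.8%. The minimum of 20 reads is a lower level in the deeper IL-2 library, where 1 read is 0.0269 CPM, than in the IL-15 library, where it is 0.0377 CPM. Among genes with a mean over the 9 libraries under 1 CPM, 69.8% passed 2-fold, 225 higher and 374 lower with IL-15. The faintest genes can reach 20 reads only in the library where they are higher, so the minimum itself raises their share. The part of depth and of the minimum in the excess of lower genes was not tested. The share past 2-fold fell in steps to 40.1%, 18.9%, 5.53% and 1.61% as the mean reached 1, 3, 10 and 30 CPM. Of the 1959 genes with a mean of at least 100 CPM, 0.613% passed, 8 higher and 4 lower. With at least 1000 reads in the higher library, called well counted below, 31 of 5310 genes were higher with IL-15 (0.584%) and 50 were lower (0.942%), together 81 or 1.53%. With plain total counts in place of TMM these were 17 higher and 84 lower, and in the deposited RPKM values 16 higher and 93 lower. The middle 95% of the well-counted genes lay between -0.77 and 0.69.

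**Figure D1:**
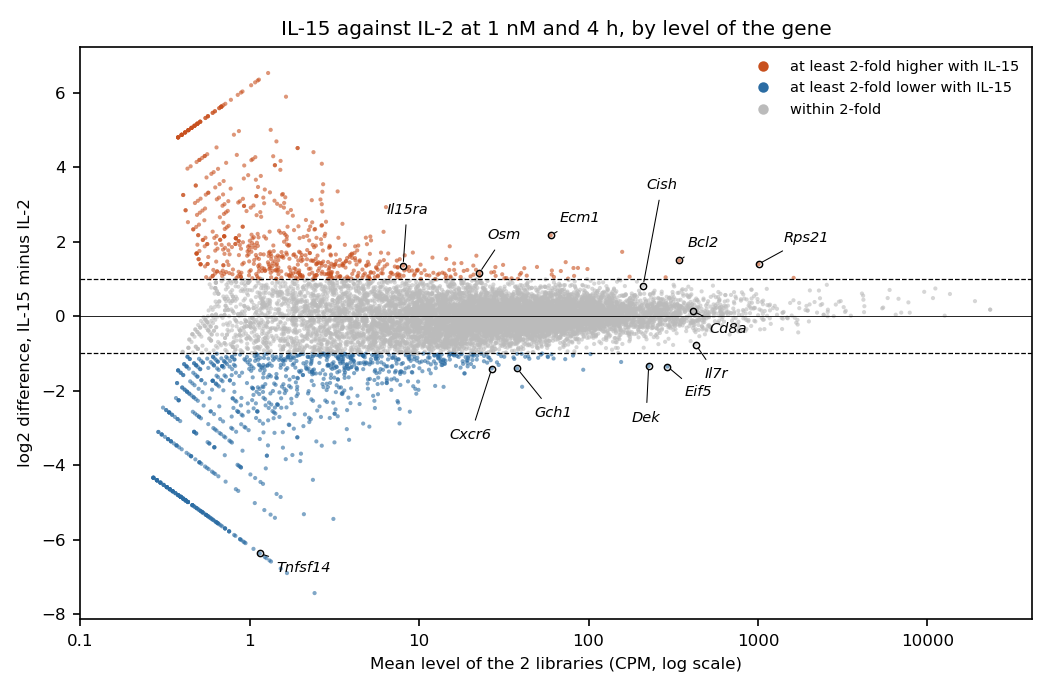
Each point is 1 of the 11672 genes with at least 20 reads in the higher library. The horizontal axis is the mean of the IL-15 and IL-2 levels at 1 nM and 4 h in CPM on a log scale, the vertical axis the log2 difference of IL-15 minus IL-2, and dashed lines mark 2-fold. Points beyond 2-fold gather on the left, among genes of low level, and few lie beyond it above 100 CPM, among them Bcl2 and Rps21 on the higher side and Dek and Eif5 on the lower.

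Ecm1 and Bcl2 were among the well-counted genes with the largest differences toward IL-15. Ecm1 (NM_007899, chromosome 3), which encodes an extracellular matrix protein, measured 97.9 CPM with IL-15 and 21.7 CPM with IL-2, against 6.12 CPM untreated. Its level was 4.51-fold higher with IL-15 (counting interval 4.17 to 4.89). Bcl2 (NM_009741, chromosome 1), the founding anti-apoptotic gene of its family, measured 508 CPM with IL-15 and 180 CPM with IL-2, against 210 CPM untreated. That is a 2.82-fold difference (2.74 to 2.91), with IL-2 and untreated cells close to each other. With 500 nM for 4 h Bcl2 measured 580 CPM with IL-15 and 689 CPM with IL-2, so the IL-15 library at 1 nM stood near the level of the high dose.

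After 24 h at 1 nM the order of Bcl2 was the other way, 172 CPM with IL-15 and 208 CPM with IL-2. Ecm1 stood then at 9.76 CPM with IL-15 and 15.7 CPM with IL-2. At 500 nM and 4 h Ecm1 measured 244 CPM with IL-15 and 227 CPM with IL-2. The large differences of both genes at 1 nM and 4 h were thus not present in any of the other 3 matched pairs. Each value is 1 library, so how far these levels vary between repeats is not known.

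The receptor chains differed mainly in the private chain of IL-15. Il15ra (NM_133836, chromosome 2) measured 11.6 CPM with IL-15 from 307 reads and 4.50 CPM with IL-2 from 167 reads, against 17.1 CPM untreated. It was 2.57-fold higher with IL-15 (2.12 to 3.13), and both treated libraries lay below the untreated one. After 24 h at this dose it was lower with IL-15, at 9.51 CPM against 26.1 CPM with IL-2. Il2ra, the private chain of IL-2, measured 14.7 CPM with IL-15 and 12.7 CPM with IL-2, both several times the 1.64 CPM of untreated cells. At 24 h Il2ra separated, with 2.57 CPM with IL-15 and 24.5 CPM with IL-2. The shared chain Il2rb measured 407 CPM with IL-15 and 365 CPM with IL-2, and Il2rg 261 CPM with IL-15 and 238 CPM with IL-2. The Il2rg difference of 0.13 turned to -0.02 in the deposited RPKM values.

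The kinases and transcription factors of the pathway did not pass 2-fold. Of 11 JAK and STAT genes 0 passed on either side, with differences between -0.53 and 0.09 and a median of -0.22, beside -0.02 over all 11672 genes. All 11 were well counted, and 1.53% of well-counted genes passed. Stat5b measured 366 CPM with IL-15 and 478 CPM with IL-2, and Jak1 462 CPM with IL-15 and 604 CPM with IL-2. Jak2 held the lowest difference of the list at 42.0 CPM with IL-15 and 60.6 CPM with IL-2.

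Feedback inhibitors of cytokine signalling were uneven. Of 12 measured, 1 passed 2-fold, Socs4, beside 13.8% of all genes in either direction. Socs4 barely did so at 2.01-fold, with 13.7 CPM with IL-15 and 6.79 CPM with IL-2. With plain total counts its log2 difference was 0.88, under the threshold. Cish (NM_009895, chromosome 9), which blocks STAT5 docking to the receptor, measured 268 CPM with IL-15 and 152 CPM with IL-2, both above the 39.6 CPM of untreated cells. Its difference was 1.76-fold (1.70 to 1.83). Socs3 measured 257 CPM with IL-15 and 169 CPM with IL-2, against 263 CPM untreated, so the IL-15 library matched the untreated one. Socs1 measured 19.3 CPM with IL-15 and 20.6 CPM with IL-2, against 19.1 CPM untreated, and its interval of 0.839 to 1.05 spans equality. Socs2 measured 17.6 CPM with IL-15 and 19.9 CPM with IL-2.

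Of 21 listed STAT5 targets 2 passed 2-fold, both higher with IL-15 (Bcl2 and Osm), beside 13.8% of all genes in either direction. The list median was 0.21. Of the 21, 15 lay above 0 and 6 below it. Osm (NM_001013365, chromosome 11), the cytokine oncostatin M, measured 31.4 CPM from 832 reads with IL-15 and 13.98 CPM from 519 reads with IL-2, against 23.7 CPM untreated, a 2.24-fold difference (2.01 to 2.51). At 500 nM and 4 h it measured 443 CPM with IL-15 and 486 CPM with IL-2, far above either value at 1 nM. Pim2, a survival kinase, measured 571 CPM with IL-15 and 360 CPM with IL-2, and Ccnd2, cyclin D2, 439 CPM with IL-15 and 271 CPM with IL-2. Both were below 2-fold, and untreated cells measured 510 CPM of Pim2 and 592 CPM of Ccnd2. Lta, lymphotoxin alpha, measured 121 CPM with IL-15 and 82.5 CPM with IL-2, against 46.4 CPM untreated. Pim1, the sister kinase gene, was alike in the pair, at 16.9 CPM with IL-15 and 18.4 CPM with IL-2 against 5.32 CPM untreated. Myc, the growth regulator, measured 356 CPM with IL-15 and 287 CPM with IL-2, both below the 457 CPM of untreated cells.

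**Figure D2:**
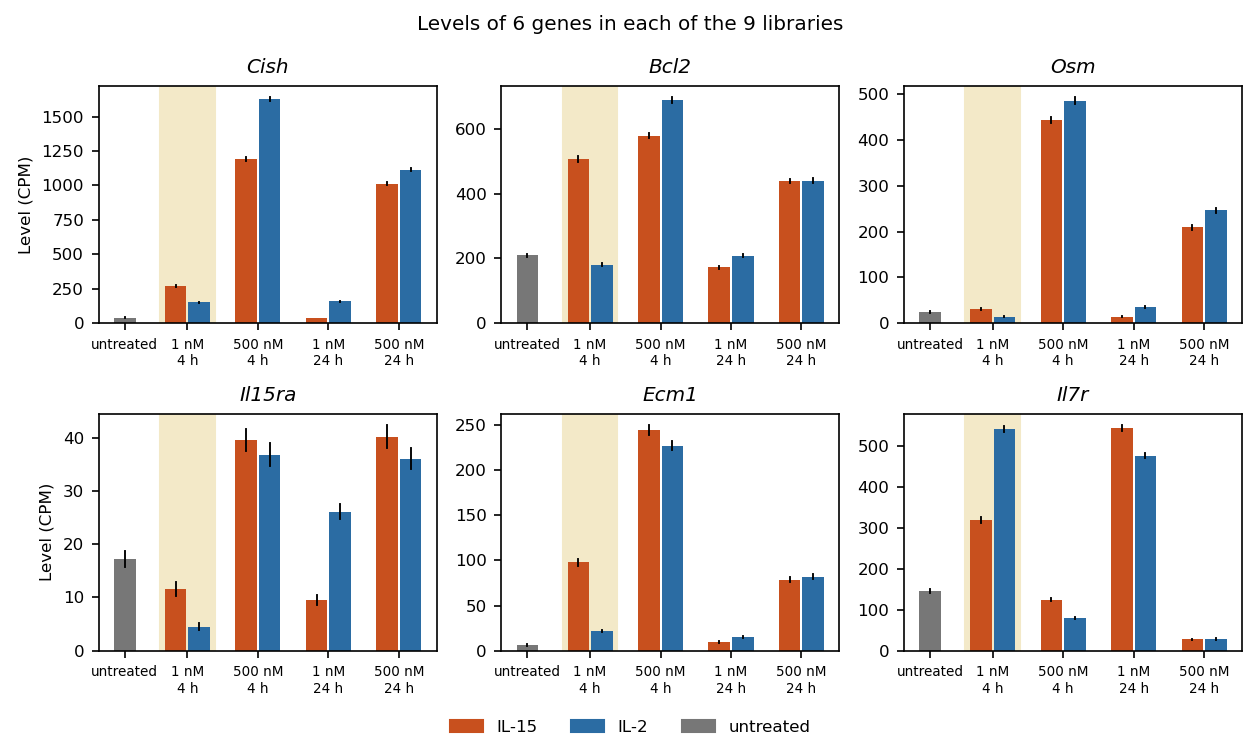
Bars give the level in CPM of 6 genes in the untreated library and, for each dose and time, in the IL-15 and then the IL-2 library, with 1 library per bar. Lines are 95% Poisson counting intervals, and the shaded pair is 1 nM and 4 h. At 1 nM and 4 h the IL-15 bar is above the IL-2 bar for Cish, Bcl2, Osm, Il15ra and Ecm1 and below it for Il7r, whereas at 1 nM and 24 h those 6 orders are reversed.

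Genes that differed from untreated with both cytokines at the high dose were then taken as sets that use neither library of the pair. They are called induced or repressed by their side of the untreated level alone. There were 293 genes at least 4-fold above untreated at 500 nM and 4 h with IL-15 and with IL-2, and with at least 100 reads in each of those 2 libraries. Of these, 289 had at least 20 reads in the pair. Their median difference at 1 nM and 4 h was 0.01, with the middle 50% of values between -0.34 and 0.38. Of them, 16 were at least 2-fold higher with IL-15 and 21 were lower, together 12.8%, beside the 13.8% of all genes. Of the 289, 183 were at least 2-fold above untreated with IL-15 and 188 with IL-2, where 12.2% and 14.9% of all 11672 genes were. Their median log2 difference from untreated was 1.35 with IL-15 and 1.34 with IL-2. The genes were chosen against the same untreated library, so these counts and medians are a description only, and a low untreated value raises both. That library has no labelled time. Cytokine, time in culture and a change in other cells therefore cannot be told apart in these sets.

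Among genes below untreated at the high dose a larger share passed 2-fold between the cytokines, but the 2 sets were not matched in level. The minimum of 100 reads applied here to the untreated library alone, and for the induced genes to both libraries of 500 nM and 4 h. The share past 2-fold rises as the level falls, and the part of level was not tested. Of 329 genes at least 4-fold below untreated at 500 nM and 4 h with both cytokines and with at least 100 untreated reads, 305 had at least 20 reads in the pair, with 33 higher with IL-15 and 39 lower, together 23.6%, and a median of -0.08. At least 2-fold below untreated were 249 with IL-15 and 244 with IL-2, where 10.6% and 10.8% of all genes were, with median log2 differences from untreated of -1.83 with IL-15 and -1.82 with IL-2. After 24 h at 1 nM the median difference between the cytokines was -0.55 for the induced genes and 0.33 for the repressed genes. The difference in those medians between 4 h and 24 h was not tested, since each rests on 1 pair of libraries.

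**Figure D3:**
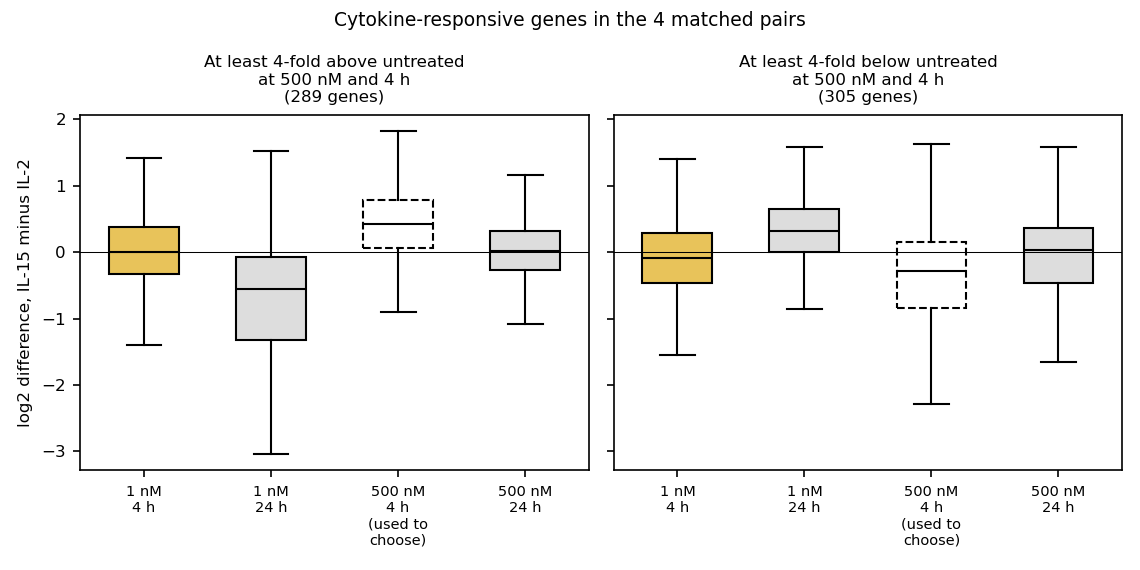
Boxes give the median and middle 50% of the log2 difference of IL-15 minus IL-2 in the 4 matched pairs. The genes are 289 at least 4-fold above untreated and 305 at least 4-fold below it, with both cytokines at 500 nM and 4 h. Whiskers reach to the last value within 1.5 times the box height. The pair used to choose the genes is drawn with a dashed outline. The boxes at 1 nM and 4 h are centred near 0, at 0.01 and -0.08, whereas at 1 nM and 24 h they are centred at -0.55 and 0.33.

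Among the BCL-2 family, 2 of 14 measured members passed 2-fold, both higher with IL-15, beside 13.8% of all genes in either direction. The 2 were Bcl2 and Bik. Bik, a pro-apoptotic member, measured 2.53 CPM with IL-15 and 0.781 CPM with IL-2 from 67 and 29 reads. The pro-apoptotic effector Bax measured 48.2 CPM with IL-15 and 28.6 CPM with IL-2. Bcl2l11, which encodes the pro-apoptotic protein Bim, measured 151 CPM with IL-15 and 167 CPM with IL-2, both above the 44.2 CPM of untreated cells. Mcl1 and Bcl2l1, both anti-apoptotic, leaned the other way from Bcl2. Mcl1 measured 329 CPM with IL-15 and 390 CPM with IL-2, and Bcl2l1 measured 32.7 CPM with IL-15 and 39.2 CPM with IL-2.

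Of 14 measured cytotoxic effector genes, 1 was higher with IL-15 (Fasl) and 1 was lower (Ifng), beside 13.8% of all genes past 2-fold, with a list median of 0.34. Fasl, the death ligand, measured 8.03 CPM with IL-15 and 3.37 CPM with IL-2, against 0.612 CPM untreated, from 213 reads with IL-15 and 125 with IL-2, a 2.38-fold difference. Ifng, interferon gamma, had 22 reads with IL-15 and 71 reads with IL-2, or 0.830 and 1.91 CPM, with 0.999 CPM untreated. Gzmb, granzyme B, measured 18.3 CPM with IL-15 and 13.3 CPM with IL-2, against 8.86 CPM untreated. Prf1, perforin, measured 44.8 CPM with IL-15 and 42.5 CPM with IL-2, both below the 132 CPM of untreated cells. With 1 nM for 24 h Gzmb measured 31.0 CPM with IL-15 and 351 CPM with IL-2.

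Cytokine and chemokine genes that passed 2-fold mostly did so at few reads, where many genes pass, and 13.8% of all genes passed. Of 13 measured cytokines 3 were higher with IL-15 (Osm, Il2 and Il10) and 3 were lower (Ifng, Tnfsf11 and Tnfsf14). Tnfsf14, the ligand LIGHT, had 0 reads with IL-15 and 85 reads with IL-2, and was at least 20.2-fold higher with IL-2 when 3 reads are taken as the floor of the IL-15 library, while the lower bound of its counting interval was 16.1-fold. Untreated cells measured 14.8 CPM of Tnfsf14. Il2 itself had 33 reads with IL-15 and 3 reads with IL-2, a ratio of 15.4 (4.83 to 78.5), and Il10 had 41 reads with IL-15 and 10 reads with IL-2. Tnf measured 51.2 CPM with IL-15 and 39.6 CPM with IL-2, against 11.4 CPM untreated. Of 14 chemokine and chemokine receptor genes 2 were higher with IL-15, among them Ccr2, and 2 were lower, Ccl3 and Cxcr6. Cxcr6 (NM_030712, chromosome 9), the receptor of Cxcl16 and the well-counted one of the 4, measured 14.7 CPM with IL-15 and 39.0 CPM with IL-2, against 47.1 CPM untreated.

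Transcription factors of effector and memory cells passed 2-fold in 3 of 23 cases, all at low counts, beside 13.8% of all genes. Prdm1, a driver of terminal effector cells, had 12 reads with IL-15 and 92 reads with IL-2. Bcl6, a repressor that opposes Prdm1, was lower as well, with 28 reads with IL-15 and 133 reads with IL-2. Zeb2 was the 1 on the higher side, with 62 reads with IL-15 and 41 reads with IL-2, and its log2 difference of 1.06 was 0.94 with plain total counts, under the threshold. Tcf7, which keeps the naive and memory state, measured 1471.8 CPM with IL-15 and 1990.1 CPM with IL-2, against 1909.5 CPM untreated. Tbx21 measured 27.0 CPM with IL-15 and 29.5 CPM with IL-2 and Eomes 35.04 CPM with IL-15 and 40.5 CPM with IL-2, both well below untreated cells. Ikzf1, which encodes Ikaros, measured 96.1 CPM with IL-15 and 179 CPM with IL-2.

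Of 18 genes of naive and memory cells 1 passed 2-fold, beside 13.8% of all genes and 1.53% of well-counted genes. Well counted were 16 of the 18. The 1 that passed was Igfbp4, which encodes a binding protein of insulin-like growth factors. It measured 139 CPM with IL-15 and 57.8 CPM with IL-2, against 1038.2 CPM in untreated cells, so that both cytokines were far below untreated. Il7r, the receptor chain of IL-7, measured 319 CPM with IL-15 and 541 CPM with IL-2, both above the 146 CPM of untreated cells. Its 1.70-fold higher level with IL-2 (1.65 to 1.74) stayed under the threshold. Ccr7, a chemokine receptor of lymph node homing, differed by 0.04. Cd28, the costimulatory receptor, measured 51.5 CPM with IL-15 and 84.5 CPM with IL-2.

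Early activation genes were mostly within 2-fold, as were most well-counted genes. Of 27 measured, 1 passed 2-fold, beside 13.8% of all genes and 1.53% of well-counted genes, with a median of -0.05. Well counted were 19 of the 27. The 1 that passed was Nr4a3, a nuclear receptor gene, with 10 reads with IL-15 and 78 reads with IL-2. Cd69, an early activation marker, measured 59.3 CPM with IL-15 and 90.5 CPM with IL-2, against 29.5 CPM untreated. Dusp1, a phosphatase of MAP kinases, measured 90.2 CPM with IL-15 and 163 CPM with IL-2, against 43.0 CPM untreated. Egr1 and Nr4a1, which mark antigen receptor signals, differed by -0.08 and -0.05. Of 12 heat shock chaperones 1 passed, Hspb1, with 10 reads with IL-15 and 34 reads with IL-2, and the median was -0.31. Well counted were 9 of the 12, and the same shares of genes stand beside this count.

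Of 23 interferon response genes 0 were higher and 1 was lower, beside 5.77% and 8.07% of all genes. The lower one was Ifi44, with 31 reads with IL-15 and 116 reads with IL-2. The median of the 23 genes was 0.14. Their median was -0.50 in the 24 h pair of the low dose, 1.09 in the 4 h pair of the high dose and 0.39 in its 24 h pair. Of 11 interferon-inducible GTPases 0 passed on either side at 1 nM and 4 h, with a median of -0.11, whereas it was -2.02 after 24 h at this dose, 0.79 in the 4 h pair of the high dose and -0.07 in its 24 h pair. Of 13 class I presentation genes 0 passed, and their median was 0.25. All 13 were well counted, as were 7 of the 11 GTPases, and 1.53% of well-counted genes passed.

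Past 2-fold in the metabolism lists were 0 of 17 glycolysis genes, 0 of 20 genes for amino acid uptake and the ATF4 response, 0 of 20 genes for cholesterol and fatty acid synthesis, 0 of 23 mitochondrial respiration genes and 0 of 18 genes of the PI3K, AKT and mTOR pathway. Of 24 ribosome biogenesis genes 1 was higher with IL-15, Gar1, at 10.4 CPM with IL-15 and 4.82 CPM with IL-2. Its log2 difference of 1.10 was 0.98 with plain total counts. Of 28 DNA replication genes 1 was higher, Gins1, a part of the replicative helicase, with 95 reads with IL-15 and 50 reads with IL-2. Of 20 mitosis genes 1 was higher (Cenpe) and 3 were lower (Tpx2, Ccnb1 and Cenpf), with a median of -0.36. In the deposited RPKM values Cenpe, at 0.84, and Cenpf, at -0.84, were under the threshold. Tpx2, a spindle assembly factor, had 61 reads with IL-15 and 484 reads with IL-2, against 259 reads untreated, and had the lowest ratio of the list. In all 40 lists, 38 of 583 measured members passed 2-fold, 20 higher and 18 lower with IL-15, beside the 13.8% of all genes that did so. Among well-counted genes 1.53% did so. The list members were not matched to all genes in level, on which the share past 2-fold depends.

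**Figure D4:**
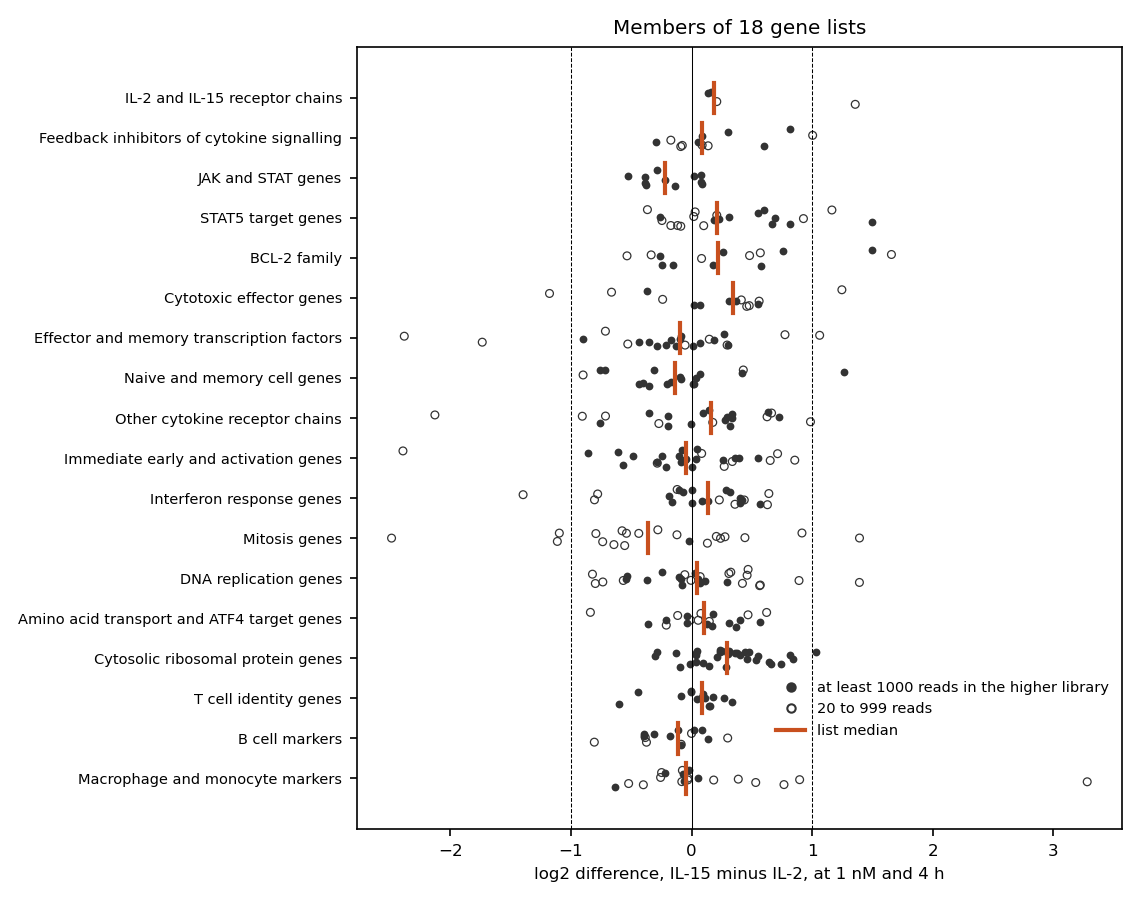
Each point is a member of 1 of 18 gene lists, placed by its log2 difference of IL-15 minus IL-2 at 1 nM and 4 h on the horizontal axis. Filled points have at least 1000 reads in the higher library, open points fewer, coloured bars are list medians and dashed lines mark 2-fold. Filled points lie between the dashed lines except Bcl2, Igfbp4 and Rpl37, the last of which was within them with plain total counts, and medians lie between -0.36 and 0.34.

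The genes lower with IL-15 at high counts were of other kinds. Eif5 (NM_173363, chromosome 12), a factor that selects the start codon in translation, measured 164 CPM with IL-15 and 420 CPM with IL-2, against 410 CPM untreated, and was 2.55-fold higher with IL-2 (2.47 to 2.64). Dek (NM_025900, chromosome 13), which encodes a chromatin protein, measured 128 CPM with IL-15 and 325 CPM with IL-2, against 285 CPM untreated. For both genes IL-2 and untreated cells were close and the IL-15 library was low. Gch1 (NM_008102, chromosome 14), the first enzyme of tetrahydrobiopterin synthesis, differed in the other way, since IL-2 stood above untreated, with 20.8 CPM with IL-15 and 55.02 CPM with IL-2, against 16.3 CPM untreated. Eif2ak3, which encodes the stress kinase PERK, measured 28.3 CPM with IL-15 and 59.8 CPM with IL-2, against 12.1 CPM untreated. Chuk, a kinase of the NF-kappa-B pathway, measured 9.50 CPM with IL-15 and 27.6 CPM with IL-2, and Sp3, a GC-box transcription factor, 9.47 CPM with IL-15 and 27.5 CPM with IL-2. Casp9, an initiator of apoptosis, measured 22.9 CPM with IL-15 and 49.2 CPM with IL-2.

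Where the untreated library stood did not sort these genes to 1 side. Of the 31 well-counted genes higher with IL-15, untreated lay below both in 7, between them in 15 and above both in 9. Of the 50 lower with IL-15, it lay below both in 15, between them in 22 and above both in 13. Of the 5229 well-counted genes within 2-fold, it lay below both in 2239, between them in 1052 and above both in 1938. A wider gap more easily encloses the untreated value, so a larger share between them is built into this count.

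Transcript length moved with the difference between the libraries. Over 7828 genes with a mean over the 9 libraries of at least 10 CPM, the difference fell with summed exon length, with Spearman's rho of -0.30 at 1 nM and 4 h, given as a description since all points share the same 2 libraries. It was 0.22 in the 24 h pair of this dose, and in the pairs of 500 nM it was 0.07 after 4 h and 0.08 after 24 h. In the pair described here the median difference was 0.14 for transcripts under 500 nt, 0.23 from 500 nt, 0.14 from 1000 nt, 0.00 from 2000 nt, -0.09 from 3000 nt and -0.14 from 5000 nt. Several genes lower with IL-15 are long, such as Sp3 at 4177 nt, Eif2ak3 at 4496 nt and Casp9 at 3896 nt, whereas Bcl2 at 7206 nt and Lyst at 11806 nt were higher. The part of length in these differences was not tested.

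**Figure D5:**
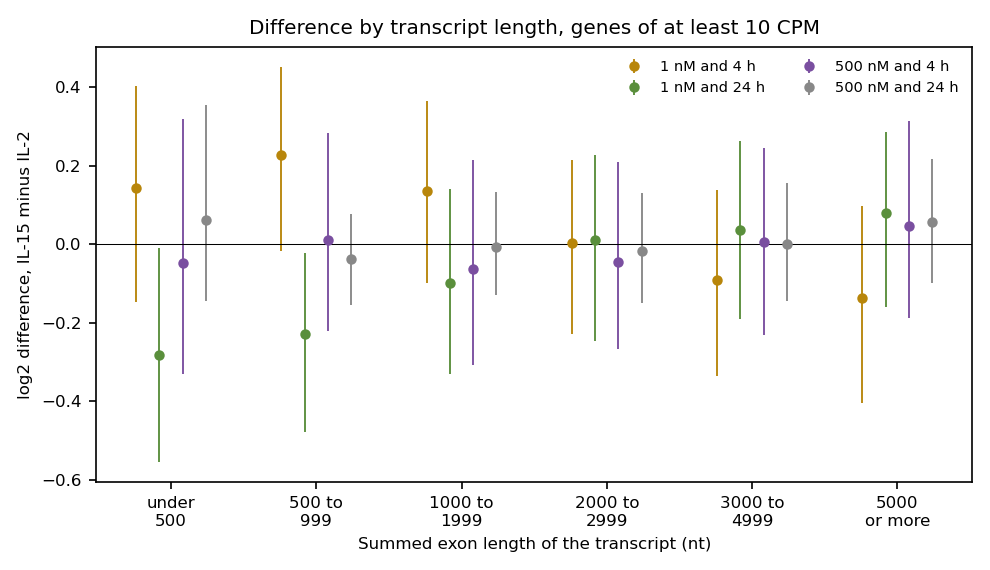
Points give the median and lines the middle 50% of the log2 difference of IL-15 minus IL-2 for genes of at least 10 CPM, by summed exon length in nucleotides, in each of the 4 matched pairs. At 1 nM and 4 h the medians run from 0.23 for transcripts from 500 nt to under 1000 nt to -0.14 for those of 5000 nt or more, and at 1 nM and 24 h they run the other way.

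Short ribosomal protein transcripts were among the well-counted genes higher with IL-15. Of 77 cytosolic ribosomal protein genes 6 were at least 2-fold higher and 0 lower, with a median of 0.29, beside 5.77% of all genes and 0.584% of well-counted genes that were higher. With plain total counts 4 of the 6 passed, since Rpl37 was at 0.90 and Rps29 at 0.92 on the log2 scale. Rpl38 measured 243 CPM with IL-15 and 73.2 CPM with IL-2, against 169.7 CPM untreated, and Rps21 measured 1463.2 CPM with IL-15 and 554 CPM with IL-2, against 1350.4 CPM untreated. Of 15 such genes under 500 nt 4 were higher, with a median of 0.43, and of 62 longer ones 2 were higher, with a median of 0.28. Ribosomal protein genes have many near-identical pseudogenes, between which reads can be split, and how such reads were counted is not given in the sources used here, so these counts are uncertain.

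The differences at 1 nM and 4 h seldom recurred in the other matched pairs, which use other libraries. To recur, a gene needed at least 20 reads in the higher library of the other pair. The shares set beside these counts are of genes with at least 1000 reads there, so a recurring gene need not be among them. Of the 31 well-counted genes higher with IL-15, 0 were at least 2-fold higher with IL-15 in the 24 h pair of 1 nM, where 0.226% of well-counted genes were. The number was 1 in the 4 h pair of 500 nM, where 1.6% were, and 6 in its 24 h pair, where 0.151% were. Those 6 were Rpl37, Rpl38, Rps21, Rps28, Rps29 and Bola2, of which Bola2 has a transcript of 337 nt. They were named after their values were seen. Of the 50 lower with IL-15, 2 were lower by at least 2-fold in the 24 h pair of 1 nM, beside 2% of well-counted genes. The number was 0 in the 4 h pair of 500 nM, beside 0.266%, and 1 in its 24 h pair, beside 0.0753%. In either direction 2.23% of well-counted genes passed 2-fold in the 24 h pair of 1 nM, 1.86% in the 4 h pair of 500 nM and 0.226% in its 24 h pair. The 1.53% of the pair described here was between these.

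The largest ratios came from genes near the detection limit. Of genes with at least 100 reads in the higher library, the 15 largest differences toward IL-15 ran from 2.43 to 4.41, with 4.00 to 11.3 CPM with IL-15 and 0.189 to 1.46 CPM with IL-2. Lcat, an enzyme that esterifies cholesterol in plasma lipoproteins, led with 121 reads with IL-15 and 7 reads with IL-2, a ratio of 24.2 (11.4 to 61.5). Cxcl11, an interferon-induced chemokine, had 106 reads with IL-15 and 25 reads with IL-2, against 1 read untreated. Dusp14, a phosphatase, had 125 reads with IL-15 and 24 reads with IL-2, against 0 reads untreated. Of these 15 genes, 1 kept the same sign in all 4 matched pairs. The 15 largest differences toward IL-2 lay at 0 to 0.415 CPM with IL-15 and 2.78 to 6.12 CPM with IL-2, and 0 kept the same sign in all 4 pairs. Among them, Mr1, which presents vitamin metabolites to T cells, had 6 reads with IL-15 and 124 reads with IL-2, and Snai1, a transcriptional repressor, had 5 reads with IL-15 and 168 reads with IL-2. Ptgir, the prostacyclin receptor, had 0 reads with IL-15 and 123 reads with IL-2, and also 0 reads untreated.

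Cd8a, a chain of the CD8 co-receptor, measured 434 CPM with IL-15 and 393 CPM with IL-2, against 902 CPM untreated, and Cd8b1 1049.7 CPM with IL-15 and 1118.0 CPM with IL-2. Summed over 14 T cell identity genes, the level was 5355 CPM with IL-15 and 5298 CPM with IL-2, against 7860.2 CPM untreated, and 0 of them passed 2-fold. Of 16 listed B cell markers 15 were measured and 0 passed, with sums of 743 CPM with IL-15 and 792 CPM with IL-2, against 1002 CPM untreated. Pax5, the other one, had 0 reads with IL-15 and 12 reads with IL-2. Of 22 macrophage and monocyte markers 20 were measured, with sums of 400.4 CPM with IL-15 and 412 CPM with IL-2, against 2509.8 CPM untreated. Of the other 2, Itgam had 0 reads in both, and Siglec1 had 6 reads with IL-15 and 0 with IL-2. The 1 that passed was Hmox1, which degrades haem, with 76 reads with IL-15 and 10 reads with IL-2. Of 10 MHC class II presentation genes 0 passed, with sums of 2922 CPM with IL-15 and 3068 CPM with IL-2. Of 8 markers of CD4+ and regulatory T cells 2 were higher with IL-15 and 6 lay above 0, with sums of 85.5 CPM with IL-15 and 75.02 CPM with IL-2, against 51.5 CPM untreated. Cd4, which marks helper T cells, had 83 reads with IL-15 and 17 reads with IL-2, and Cd40lg, which encodes the CD40 ligand, had 20 reads with IL-15 and 4 reads with IL-2. Foxp3 of regulatory T cells measured 23.9 CPM with IL-15 and 25.9 CPM with IL-2. Of 7 measured erythroid and platelet markers 2 were lower with IL-15 and 6 lay below 0, with sums of 102 CPM with IL-15 and 116 CPM with IL-2, against 192 CPM untreated. Those 2 were Slc4a1, the anion exchanger of red cells, with 5 reads with IL-15 and 88 reads with IL-2, and Alas2, which starts haem synthesis in red cells, with 44 reads with IL-15 and 162 reads with IL-2. Of 14 listed neutrophil and mast cell markers 2 had at least 20 reads, and 1 of them was lower, Ngp, a granule protein gene, with 2 reads with IL-15 and 21 reads with IL-2. Below that minimum S100a9 had 2 reads with IL-15 and 13 reads with IL-2, and Camp had 0 reads with IL-15 and 16 reads with IL-2. S100a8 went the other way, with 7 reads with IL-15 and 2 reads with IL-2. Of 6 measured NK cell markers 1 was lower, Cd244, with 1 read with IL-15 and 20 reads with IL-2, and the sums were 88.2 CPM with IL-15 and 91.7 CPM with IL-2. These marker counts stand beside 5.77% of all genes that were higher with IL-15 and 8.07% that were lower. The part of other cells in the differences between the libraries was not tested. In bulk RNA, fewer cells of a type and less RNA per cell cannot be told apart.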

How the data were processed

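RNA sequencing of 9 pooled libraries was read from the deposited tables, which hold raw read counts for 24373 RefSeq transcripts of 20418 symbols. The authors' RPKM values in the same deposited tables were used as an alternative. The submitters' processing notes name CASAVA 1.8, Bowtie 0.12.4 and mm8, and strand use is not given in the sources used here. Per the labels' protocols, cDNA from nanogram amounts of pooled RNA was amplified in several rounds of PCR.

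The transcript with the highest mean count stood for each of the 2673 symbols with several. Libraries were scaled by TMM in edgeR 4.0.16 (R 4.3.3) over all 9. With 1 library on each side no test was made. Ratios carry exact conditional binomial intervals at 95%, computed with scipy 1.17.1. The procedure was tested on simulated Poisson counts, which hold counting error alone, so it does not show how the intervals fare with reads copied by PCR. Depth ran from 27158143 to 48799962 reads. Alternatives were other scalings (one from DESeq2 1.42.0), minimum counts, offsets, folds, transcript choices and RPKM.

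The comparison and the 40 gene lists were chosen with earlier results of these data known. Named genes were the 15 largest differences each way with at least 100 reads, up to 4 members per list past 2-fold, and a fixed set of pathway genes. Well-counted genes, with at least 1000 reads, and other list members were added after their values were seen, as were the examples among them. A few genes that these rules name are not reported here.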

Additional observations from a re-analysis of the deposited data

Results flagged for a closer look

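Several genes lay on opposite sides in the pair at 1 nM and 4 h and in another matched pair, with log2 differences of IL-15 minus IL-2 as follows. Each pair is 1 library a side, so none of these changes of side was tested. Cish stood at 0.82 at 1 nM and 4 h and at -2.10 at 1 nM and 24 h. Ptges3, a chaperone partner of HSP90, stood at 1.08 and at -1.27 for the same pairs, and Ythdf2, a reader of methylated RNA, at 1.21 and at -1.33.

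Against 500 nM and 4 h the differing genes with IL-15 higher at 1 nM were Igfbp4 (1.27 at 1 nM, -0.80 at 500 nM), Ebpl (1.01, -0.66), Gsto1 (1.16, -0.71) and Zfp637 (1.32, -0.63). Igfbp4 also stood at -0.70 at 500 nM and 24 h. Those with IL-15 lower at 1 nM were Cd69 (-0.61 at 1 nM, 1.05 at 500 nM), Cxcr6 (-1.40, 0.59), P2ry10 (-1.15, 0.78), Pou6f1 (-1.14, 1.02), Ugcg (-1.02, 0.92), Usp9x (-1.01, 0.80) and Zufsp (-1.36, 0.65).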

How the results depend on the processing

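The 1615 genes past 2-fold (673 higher, 942 lower, 38 list members) became 1016 (402, 614) with a minimum of 50 reads, 657 (235, 422, 17) with 100 and 81 (31, 50, 4) with 1000, which was chosen after seeing the data. A 1.5-fold threshold gave 3301 (1428, 1873, 125), a 3-fold one 860 (354, 506, 17) and the nearer bound of the counting interval 899 (381, 518, 21). Fewer genes pass these rules by construction, except at 1.5-fold. The other scalings, offsets, transcript choices, a minimum of 10 reads and RPKM gave totals of 1524 to 2048. Of all calls, 41.7% were higher with IL-15, 33.9% with plain total counts and 31.7% in RPKM.

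Plain totals moved the median of all genes to -0.14, totals without the 10 highest genes to -0.11 and RPKM to -0.16, beside -0.02. Under these 3 scalings 11, 7 and 13 of 40 list medians near 0 changed sign, as did 3, 3 and 5 of 165 named genes, among them Jak3, Prf1 and, in RPKM, Cd8a and Il2rg. The median shifts of the list medians were -0.13, -0.09 and -0.15, so the sign of a list median slightly above 0 depends on the scaling. Median-of-ratios scaling, from DESeq2, and upper quartile scaling shifted them by 0.02 and 0.04. Under each of these, 2 of 40 list medians changed sign. Depth limits genes under 3 CPM most. No paired analysis was possible because each condition has 1 library.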
